A study of Arabidopsis thaliana with 12 samples.

Results

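Chromomethylase 2 (CMT2) and chromomethylase 3 (CMT3) are plant enzymes that add methyl groups to cytosines outside the CG context. CMT3 works mainly on CHG sites and CMT2 mainly on CHH sites, where H is any base but G, and CMT2 favours the trinucleotides CAA and CTA. Both bind histone H3 methylated at lysine 9, the mark of silent heterochromatin, and both are known for keeping transposable elements (TEs) silent, above all long elements near the centromeres. The question here was which genes and TEs changed when a wild-type CMT2 transgene was present in Arabidopsis thaliana plants mutant for both enzymes.

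The transgenic plants, called CMT2/cc, carried a genomic copy of CMT2 under its own promoter, with its introns and a FLAG tag at the C terminus, in the cmt2-7 cmt3-11 double mutant. That mutant, called cc, has a T-DNA insertion in each of the 2 genes and is in the Col-0 background. The comparison took in 6 of the 12 libraries of the series. CMT2/cc gave 4 of them, 2 each from line 19 and line 1, which are independent transformants of the same construct, and cc gave the other 2. The 2 wild-type Col-0 libraries are given for the level only. The remaining libraries, 2 each from lines 9 and 15, were V1200R/cc, the same mutant with a CMT2 transgene in which a valine is replaced by arginine. They entered the filter and the estimate of spread, and their values are not given. All were made from RNA of seedlings grown for 10 days at 22 °C. All CMT2/cc and cc plants shared both T-DNA insertions, CMT2/cc plants also held the vector with its seed marker, an oleosin fused to a red fluorescent protein, and each line is 1 transformant, so what belongs to the line and what belongs to CMT2 cannot be told apart within a line. Nothing in the labels says whether replicates were separately grown, so p-values measure the spread between replicates of a group, which may be technical. Each line is its own group in the test, so the spread between the lines does not enter the p-values of CMT2/cc against cc.

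Values were in TPM, the usual transcript abundance unit, scaled for the length of the feature and to the same total in every library. A feature (a gene or a TE) was tested if it reached 0.5 TPM in at least 2 of the 12 libraries. A feature was called when its difference in mean log2(TPM + 0.5) was at least 1 in size and its limma p-value, adjusted over all features by Benjamini-Hochberg, was under 0.05. Of 37572 nuclear genes and 31188 TEs, 22710 genes and 865 TEs were tested. The libraries held between 930 and 1270 megabases of aligned sequence among the 8 shown, and replicates correlated at 0.980 to 0.982. Fold changes on this scale understate the change of low features. An exact 0 can be a failed estimate in these files, since 14 protein-coding genes had a 0 in one library of the comparison and 20 TPM or more in its replicate.

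CMT2 was far above its wild-type level in both transgenic lines. It was at 79.6 and 80.8 TPM in line 19 and at 114 and 123.4 TPM in line 1, against 1.70 and 1.99 TPM in cc, with 15 and 13.3 TPM in Col-0. The groups did not overlap, and the difference of CMT2/cc from cc was 5.39 ± 0.08 on the log2 scale (SE, adjusted p = 2.2e-09). Line 19 had less CMT2 transcript than line 1 (log2 difference -0.56 ± 0.09), which did not pass the test (adjusted p = 0.083). The lower values in cc check the cmt2 label.

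The cloned fragment is set by 2 primers whose genomic parts are shown here in capitals, since they define how much of the locus the transgene held.
gCMT2-F: CGACATGAGGAAGAGTCTGAAGG
gCMT2-R: ATGAGGAATGGTTTCTTGAAGCTG
On the TAIR10 build they match chromosome 4 from 10413165 to 10413187 on the plus strand and from 10420910 to 10420933 on the minus strand. The 7769 bases between their outer ends begin 1263 bases before the annotated start of CMT2 (AT4G19020, chromosome 4, 10414428 to 10421265) and end 332 bases before its annotated end. The fragment overlaps part of AT4G19010, which encodes an AMP-dependent synthetase and ligase family protein on the other strand, and stops 588 bases short of AT4G19030, the aquaporin gene NLM1. AT4G19010 was at 5.91 and 6.94 TPM in line 19 and 6.43 and 6.85 TPM in line 1, against 6.08 and 5.39 TPM in cc (log2 difference 0.17 ± 0.11, adjusted p = 0.48). NLM1 was at 17.59 and 29.3 TPM in line 19 and 25.5 and 23.2 TPM in line 1, against 12.7 and 15.8 TPM in cc. Each of these CMT2/cc values lay above both cc values, but the difference missed the threshold (0.71 ± 0.19, adjusted p = 0.076). The native oleosin gene used for the seed marker (OLEO1, AT4G25140) was listed at 0 in every one of the 6 libraries except line 19 replicate 2, with 0.212 TPM.

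CMT3 did not check its label. It was at 7.02 and 5.69 TPM in line 19 and at 5.30 and 4.72 TPM in line 1, against 16.4 and 14 TPM in cc, with 12.9 and 11.5 TPM in Col-0. The libraries labelled cc were thus not below Col-0 (log2 difference 0.31 ± 0.13, adjusted p = 0.24), while CMT2/cc was below cc by 1.36 ± 0.11 on the log2 scale (adjusted p = 9.1e-05). A level over the whole gene cannot separate transcript on either side of a T-DNA insertion, so directions given against the libraries labelled cc rest on the cmt2 label being checked and the cmt3 label not.

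**Figure D1:**
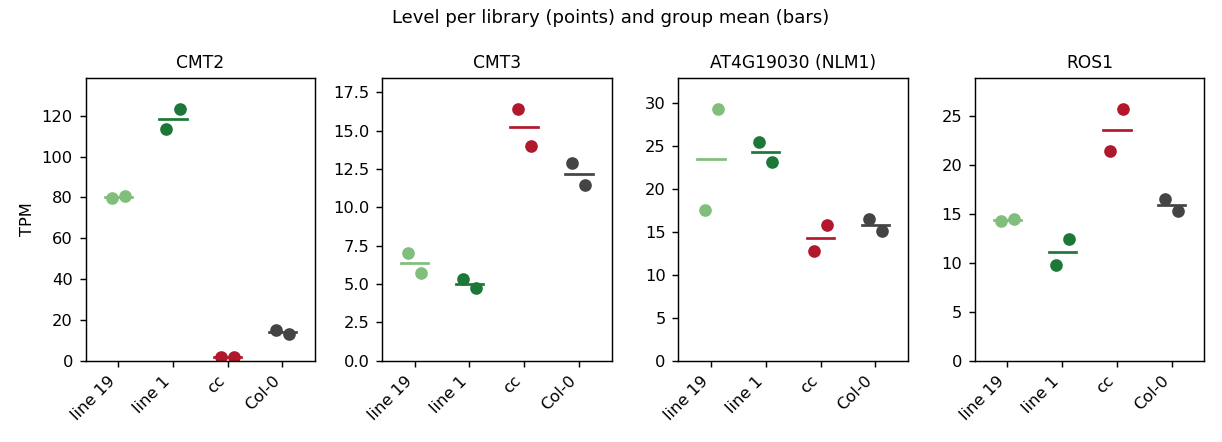
TPM of CMT2, CMT3, the neighbouring gene NLM1 and the demethylase gene ROS1 in each library, with line 19 and line 1 of CMT2/cc left of cc and Col-0, one point per library and a bar at the mean of each group of 2. CMT2 is at 79.6 TPM or more in the 4 transgenic libraries, and CMT3 and ROS1 are lower there than in both cc libraries.

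Most features called were lower with the transgene, and the share called lower was larger in TEs than in genes. Both draw in part on features that were tested only because they were high in cc, as counted below. CMT2/cc was lower than cc in 277 genes and higher in 46, which are 1.22% and 0.203% of the tested genes. It was lower in 136 TEs and higher in 16, which are 15.7% and 1.85% of the tested TEs. Among genes, the annotation class TE gene, meaning an open reading frame of transposon origin, had 79 lower and 3 higher of 198 tested. Noncoding and other genes had 54 lower and 9 higher of 1652, and protein-coding genes had 144 lower and 34 higher of 20860. The median log2 difference was -0.69 in TE genes, -0.13 in TEs and -0.03 over all 23575 features.

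The 2 lines gave like numbers when each was set against cc. Line 19 had 360 features lower and 45 higher, or 1.53% and 0.191% of those tested. Line 1 had 394 lower and 70 higher, or 1.67% and 0.297%. Features called in the same direction in the comparison of all 4 libraries and in each line numbered 304 lower and 27 higher, or 1.29% and 0.115%. Both lines are set against the same 2 cc libraries, so these counts are not independent.

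Among tested TEs, the share called lower was largest in long and in pericentromeric ones. Of TEs of 4000 bases or more, 62 of 119 were lower in CMT2/cc, with a median log2 difference of -1.14. Of TEs of 500 to under 4000 bases, 49 of 213 were lower, and of those under 500 bases, 25 of 533. Detection differs with length, since 3 reads equal 0.184 to 0.211 TPM in a feature of 1 kilobase and less in a longer one. A short TE thus reached the 0.5 TPM filter on fewer reads than a long one. The part of this in the contrast by length was not tested. Within 3 Mb of the centromere 85 of 341 TEs were lower, and farther away 51 of 524. Other genes, mostly noncoding, had the same contrast, with 38 of 255 lower within 3 Mb of the centromere and 16 of 1397 beyond it. Protein-coding genes that overlap a TE were lower in 38 of 2828 cases, those with a TE within 1000 bases in 43 of 4381, and those with none that near in 63 of 13651.

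**Figure D2:**
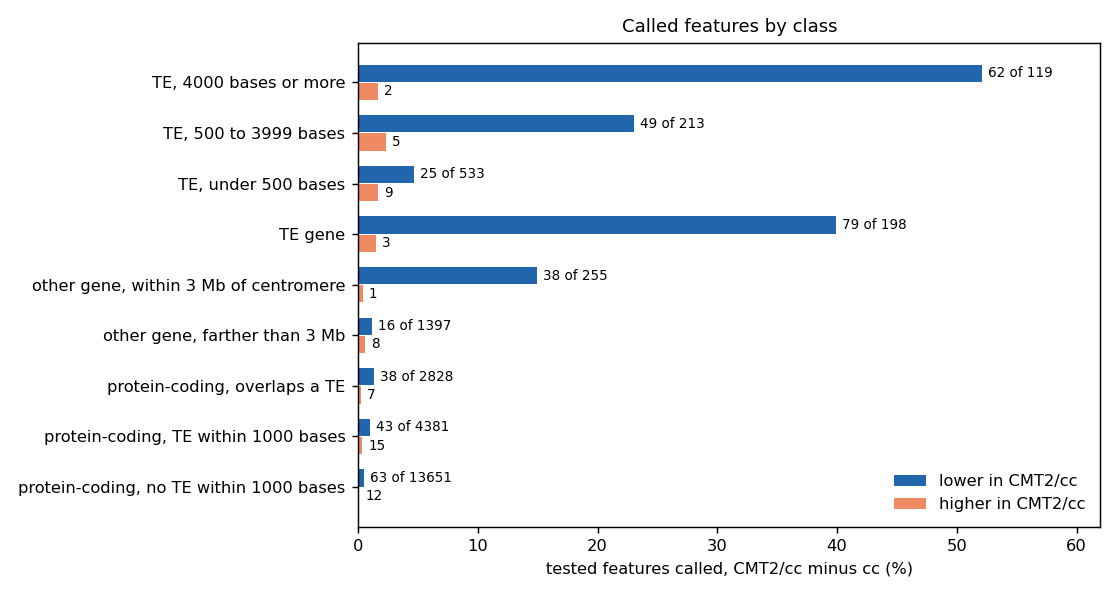
Percent of tested features called lower (upper bar) and higher (lower bar) in CMT2/cc than in cc, by class, with the numbers of features beside the bars. The share called lower is 52.1% in TEs of 4000 bases or more and 4.69% in TEs under 500 bases.

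These counts carry a selection and an overlap. Of the 413 features called lower, 235 reached 0.5 TPM in fewer than 2 libraries other than cc (92 of the 136 TEs, 62 of the 79 TE genes, 49 of the 144 protein-coding genes and 32 of the 54 other genes), so they were tested only because they were high in cc and had to differ. Of all 23575 tested features 450 were of that kind, and of the 865 tested TEs 153, so the filter bears more on TEs. TEs and TE genes are largely the same DNA, since all 79 TE genes called lower overlap a TE and 100 of the 136 TEs overlap a TE gene, and the 215 entries make up 176 loci. Without cc replicate 1 there were 167 features lower, and without cc replicate 2 there were 98. In either case 198 of the 413 passed the filter, and 129 and 94 of these were still called. With the same features tested, 391 and 321 were lower.

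The TEs called lower differed from the other tested TEs in length, with medians of 3640 and 236 bases. They held more CHG sites, with a median of 6.98 against 4.59 per 100 bases of both strands, slightly more CHH sites (28.9 against 27.2), and about as many CAA and CTA sites (7.47 against 7.14). CHG content was higher in longer TEs. Among TEs of 4000 bases or more the medians for CHG were 7.53 in those called lower and 6.88 in the rest, among TEs of 500 to under 4000 bases they were 5.42 and 5.61, and among shorter TEs 4.84 and 4.0. No test was made of these differences. Either trinucleotide, CAA or CTA, on either strand, is present in 99.8% of the 865 tested TEs, so its presence alone separates nothing.

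The TEs that fell furthest were at or near 0 in every transgenic library. AT5TE63010, on chromosome 5 from 17439696 to 17440858, was listed at 0 in all 4 CMT2/cc libraries, against 17.1 and 19.1 TPM in cc, and at 0 in Col-0 (adjusted p = 5.6e-07). The TE gene it overlaps, AT5G43415, was at 0 and 0.0111 TPM in line 19 and at 0 in both libraries of line 1, against 14 and 15.8 TPM in cc. AT1TE40355 was at 0.0344 and 0.0653 TPM in line 19 and at 0 in both libraries of line 1, against 16.2 and 17.38 TPM in cc. In these 3 entries no transgenic value exceeded 0.0653 TPM.

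AT2TE41175, on chromosome 2 from 9654888 to 9655175, overlaps no other feature, so its reads cannot belong to a gene that shares its bases. It was listed at 0 in all 4 CMT2/cc libraries and in both Col-0 libraries, against 13.9 and 10.9 TPM in cc (adjusted p = 1e-06). Its 288 bases, TAIR10 plus strand, are shown as an example of a TE that was on only in the libraries labelled cc among these 8, with CAA and CTA on this strand in capitals.
AT2TE41175: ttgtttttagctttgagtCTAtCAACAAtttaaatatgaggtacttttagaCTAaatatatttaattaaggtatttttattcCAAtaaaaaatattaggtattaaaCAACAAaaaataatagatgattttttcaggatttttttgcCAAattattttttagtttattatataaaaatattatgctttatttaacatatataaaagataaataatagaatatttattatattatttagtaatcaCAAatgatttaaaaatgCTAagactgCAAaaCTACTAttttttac
The shorter AT2TE11570, which also overlaps nothing, was not wholly off in line 1. It was at 0.318 and 0.360 TPM in line 19 and 1.15 and 0.257 TPM in line 1, against 19.8 and 13.9 TPM in cc (log2 difference -4.14 ± 0.31, adjusted p = 6e-05). AT5TE36615 was listed at 0 in CMT2/cc and Col-0 and at 10.5 and 24.8 TPM in cc, but it is only 43 bases long and 3 reads are worth at least 4.28 TPM there.

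Among TE genes the levels in Col-0 were not always as low. AT3G15310 was at 0.0220 TPM and 0 in line 19 and 0.0447 and 0.0199 TPM in line 1, against 16.3 and 13.1 TPM in cc, with 3.0 and 2.2 TPM in Col-0. Both lines were thus below wild type as well as below cc (log2 difference from cc -4.86 ± 0.18, adjusted p = 7.7e-07), although only 67.3% of its 50-base windows are unique in the genome. AT3G29078 was at 0 and 0.0176 TPM in line 19 and 0 and 0.0168 TPM in line 1, against 12.1 and 11.9 TPM in cc. AT2G01840 was at 0.0255 and 0.106 TPM in line 19 and 0.0649 and 0.0336 TPM in line 1, against 9.19 and 8.42 TPM in cc.

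The TE AT3TE68730 gave a like picture with 0.0143 and 0.132 TPM in line 19 and 0.118 and 0.0430 TPM in line 1, against 12.7 and 16.8 TPM in cc (log2 difference -4.72 ± 0.20, adjusted p = 1.6e-06). AT2TE28020 was at 0.0295 TPM and 0 in line 19 and 0 and 0.0528 TPM in line 1, against 9.35 and 9.54 TPM in cc. Col-0 had 0.464 and 0.823 TPM, above all 4 transgenic libraries. Over the TEs called lower, the median of the group means was 0.0700 TPM in line 19 and 0.0322 TPM in line 1, against 2.31 TPM in cc and 0.000763 TPM in Col-0. Choosing TEs for a fall from cc favours low medians outside cc. Of these 136 TEs, 92 reached 0.5 TPM in fewer than 2 libraries other than cc, so the medians only describe the chosen TEs.

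Summed over all TEs, the transgenic libraries held 2261 and 2001 TPM in line 19 and 2095 and 2069 TPM in line 1, against 3050 and 3086 TPM in cc. The Col-0 libraries were far apart on this sum, at 2848 and 1876 TPM. Summed over TE genes, the values were 529 and 477 TPM in line 19 and 487 and 481 TPM in line 1, against 884 and 975 TPM in cc, with 420 and 410 TPM in Col-0. On this sum the transgenic libraries lay between cc and Col-0, without overlap.

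How far each line came back towards Col-0 was read from the features called higher in cc relative to Col-0, which were 272 genes and 158 TEs, or 1.2% and 18.3% of those tested. For each, the part of the excess of cc over Col-0 still present in a line was taken from the group means, as a description with no test, since both differences use the same cc libraries. Choosing features for high values in cc also favours a small part left. In the median TE, 3.11% of the excess was left in line 19 and 0.98% in line 1. In the median of the 101 TE genes, 2.71% was left in line 19 and 1.88% in line 1, and in the median of the 57 other genes 0% in each. In the median of the 114 protein-coding genes, 18.5% was left in line 19 and 3.97% in line 1.

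A part of these features kept most of their excess. Over 90% was left in 18 TEs in line 19 and in 11 TEs in line 1, and at most 10% was left in 101 TEs in line 19 and in 107 in line 1. Among the protein-coding genes, over 90% was left in 14 in line 19 and in 16 in line 1. Of the 158 TEs, 15 were below the Col-0 mean in line 19, and 28 in line 1.

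**Figure D3:**
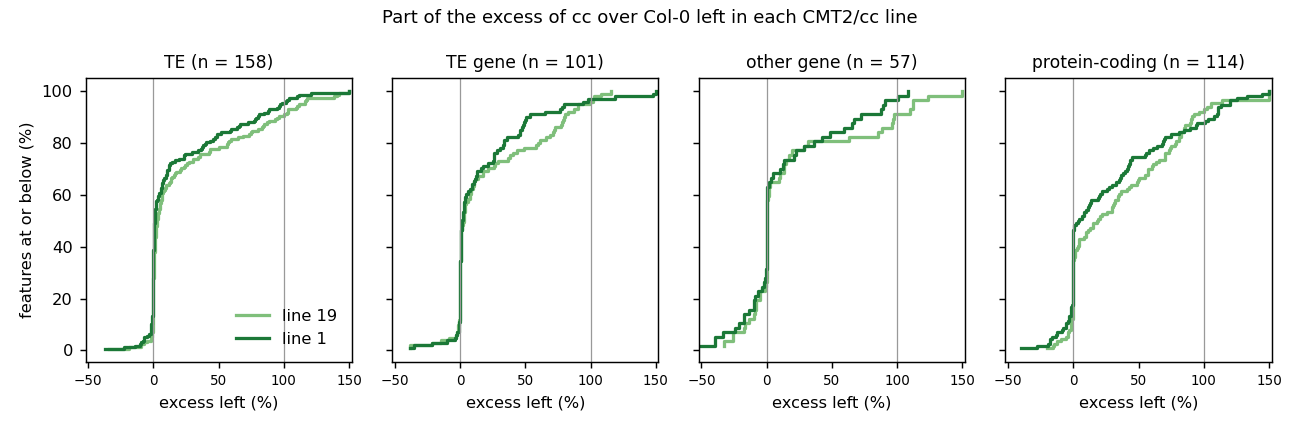
Cumulative share of features (vertical axis, %) whose remaining excess over Col-0 in line 19 or line 1 (horizontal axis, % of the excess of cc over Col-0) is at or below a value, for features called higher in cc relative to Col-0. Values outside the plotted range are drawn at its limits. In TEs, TE genes and other genes the curves climb steeply near 0%, and in protein-coding genes the climb is less steep, with medians of 18.5% in line 19 and 3.97% in line 1.

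The 4 long terminal repeat elements that the study had chosen for its own PCR assays gave mixed values in the RNA sequencing. In the paper, Copia89 and Copia18A were assayed for DNA methylation, which is not the measure used here. Copia11 and Copia47 were assayed for transcript, and the paper reports that wild-type CMT2 did not silence them again. The entry for Copia89, AT1TE44380, was at 3.99 and 5.4 TPM in line 19 and 3.62 and 5.81 TPM in line 1, against 10.2 and 11.4 TPM in cc (log2 difference -1.14 ± 0.20, adjusted p = 0.011). That call was lost without cc replicate 1 (adjusted p = 0.082), without cc replicate 2 (0.18) and without line 1 replicate 1, where the difference was -0.98. The Copia11 entry AT3TE64435 was at 36.0 and 36.8 TPM in line 19 and 19.4 and 27.3 TPM in line 1, against 33.6 and 37.0 TPM in cc (log2 difference -0.28 ± 0.14, adjusted p = 0.36). AT5G35935, the gene entry for Copia18A, also missed the test (-0.21 ± 0.12, adjusted p = 0.42).

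Copia47 shows what overlapping entries do to such values. Its TE entry AT4TE50435 was at 5.73 and 2.76 TPM in line 19 and 14.1 and 22.5 TPM in line 1, against 0.426 and 0.518 TPM in cc. Its TE gene entry AT4G20365, over nearly the same bases, was at 28.9 and 28.4 TPM in line 19 and 12.9 and 4.89 TPM in line 1, against 36.4 and 34.8 TPM in cc. The TE entry was called higher (3.23 ± 0.69, adjusted p = 0.03) while the gene entry was not called (-1.20 ± 0.66, adjusted p = 0.39). Summed over the locus the difference was -0.27 with an adjusted p of 0.34, so the call of the TE entry depends on how reads were divided between the 2 entries.

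Protein-coding genes called lower were a small part of their class, and some of those that fell furthest lie away from annotated TEs. Over the class the share called lower was 0.46% in genes with no TE within 1000 bases. It was 0.98% in those with a TE that near and 1.34% in those that overlap one. AT5G03090, annotated as a Mto 1 responding down protein, was listed at 0 in all 4 CMT2/cc libraries and both Col-0 libraries, against 38.2 and 27.8 TPM in cc (adjusted p = 4e-07). The nearest TE is 17409 bases away. AT2G34655, an uncharacterized gene 8992 bases from a TE, was at 0.0693 and 0.153 TPM in line 19 and 0.0705 TPM and 0 in line 1, against 29.3 and 32.0 TPM in cc, with 0.732 and 0.533 TPM in Col-0. AT5G15360, 16323 bases from a TE, was listed at 0 in all 4 CMT2/cc libraries, against 8.74 and 11.6 TPM in cc.

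Most of these genes have no known function, but a few do. GRP19 (AT5G07550), a glycine-rich protein of the pollen coat, was at 0.185 TPM and 0 in line 19 and at 0 in both libraries of line 1, against 10.3 and 9.10 TPM in cc (log2 difference -4.23 ± 0.20, adjusted p = 3e-06). It was listed at 0 in Col-0. AT4G29200, a beta-galactosidase related gene, was at 0 and 0.185 TPM in line 19 and at 0 in both libraries of line 1, against 10.3 and 11.3 TPM in cc. APD3 (AT2G38220), a RING/U-box protein gene that overlaps a TE, was listed at 0 in all 4 CMT2/cc libraries and in Col-0, against 12.7 and 10.6 TPM in cc. Only 37.2% of its windows are unique, so the source of its reads is uncertain.

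AT3G25719 and AT3G30823, both uncharacterized, followed the same course. AT3G25719 was at 0.286 and 0.271 TPM in line 19 and at 0 in both libraries of line 1, against 24.5 and 27.9 TPM in cc (log2 difference -5.42 ± 0.16, adjusted p = 4e-07). AT3G30823, 63 bases from a TE, was listed at 0 in all 4 CMT2/cc libraries, against 18 and 13.8 TPM in cc. Over all 144 protein-coding genes called lower, the median group mean was 0.747 TPM in line 19 and 0.570 TPM in line 1, against 4.92 TPM in cc and 1.36 TPM in Col-0. In 115 of them both line means were at or below the Col-0 mean, and 31 were listed at 0 in all 4 CMT2/cc libraries. Choosing genes for a fall from cc favours both counts, and 49 of the 144 reached 0.5 TPM in fewer than 2 libraries other than cc. The same shares over all tested protein-coding genes were not taken, so these counts describe the chosen genes only.

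The other genes that fell are mostly noncoding. AT2G20910 was listed at 0 in all 4 CMT2/cc libraries and in Col-0, against 15.8 and 18.5 TPM in cc (adjusted p = 5.6e-07), and it lies 329 bases from a TE. AT3G31908 was listed at 0 in the same 6 libraries, against 7.35 and 7.49 TPM in cc. AT1G26558 was listed at 0 in them as well, against 5.37 and 10.0 TPM in cc. All 3 were off in every library but the 2 labelled cc among these 8.

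**Figure D4:**
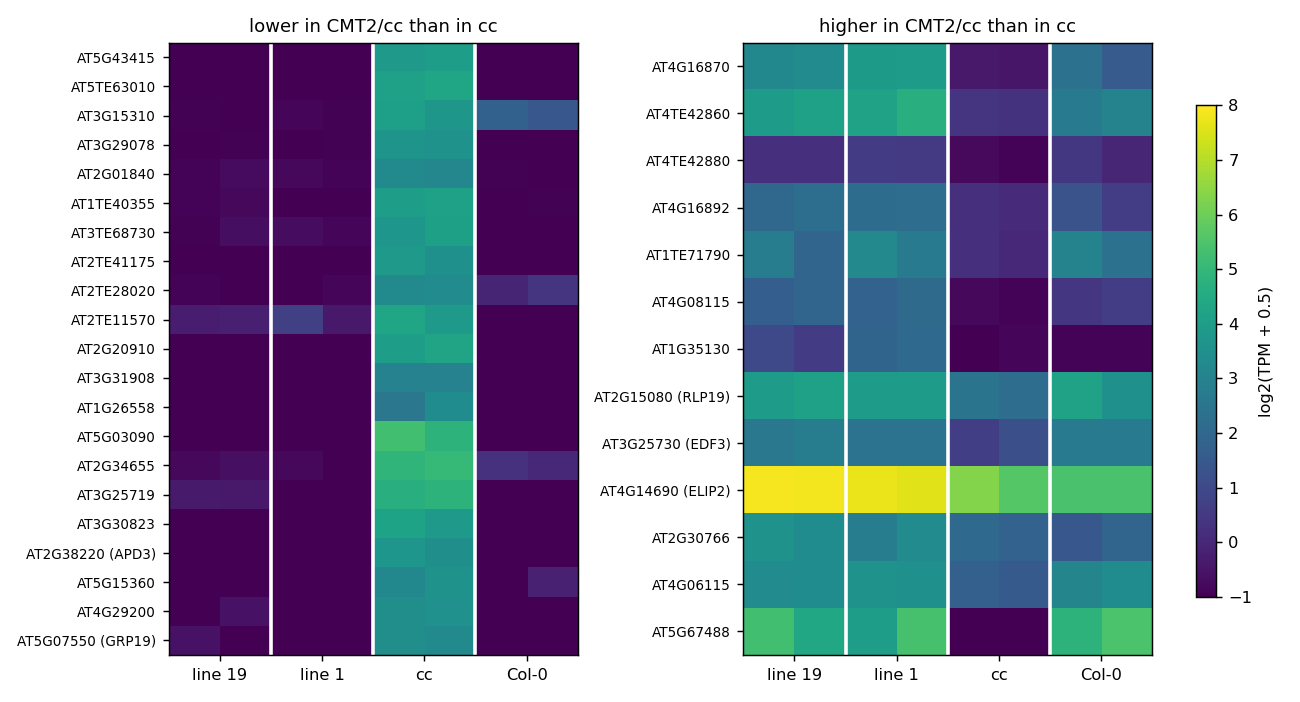
Level of named features as log2(TPM + 0.5), one cell per library, with 2 libraries each of line 19, line 1, cc and Col-0 from left to right. In the left panel the features called lower are at or near the bottom of the scale in both lines. In the right panel the features called higher are above cc in all 4 transgenic libraries, with ELIP2 at 193 TPM or more.

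The features that were higher with the transgene were fewer. Some lay in and near the RPP4-RPP5 cluster on chromosome 4, a set of disease resistance genes of the TIR-NBS-LRR class that recognise downy mildew and are interspersed with TEs. The TE gene AT4G16870 was at 8.76 and 9.66 TPM in line 19 and 14.6 and 14.7 TPM in line 1, against 0.264 and 0.231 TPM in cc, with 4.61 and 2.47 TPM in Col-0. Its difference from cc was 4.02 ± 0.18 (adjusted p = 2.8e-06), and all 4 transgenic values were above both Col-0 values.

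The TE over the same bases, AT4TE42860, was at 14.7 and 17.3 TPM in line 19 and 17.7 and 24.5 TPM in line 1, against 0.781 and 0.748 TPM in cc (log2 difference 3.89 ± 0.19, adjusted p = 3.7e-06). The noncoding gene AT4G16892 was at 3.55 and 4.29 TPM in line 19 and 4.08 and 4.11 TPM in line 1, against 0.666 and 0.571 TPM in cc (2.01 ± 0.19, adjusted p = 0.00026). The resistance genes of the cluster moved little. RPP5 (AT4G16950) was at 35.1 and 40.7 TPM in line 19 and 41.3 and 43.1 TPM in line 1, against 33.1 and 31.1 TPM in cc (0.31 ± 0.07, adjusted p = 0.046), which is under the fold threshold. Of the 8 listed members of the cluster, 1 was called higher, the TE gene AT4G16870, and none lower. Over all features tested, 0.263% were called higher and 1.75% lower. The median log2 difference of the 8 was 0.20. Only 52.5% of the windows of RPP5 are unique.

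A TE within a downy mildew resistance gene outside that cluster rose as well. AT1TE71790, on chromosome 1 from 21754363 to 21755189, lies within RPP7 (AT1G58602). It was at 6.56 and 3.36 TPM in line 19 and 8.85 and 6.12 TPM in line 1, against 0.672 and 0.498 TPM in cc, with 7.65 and 4.61 TPM in Col-0. The difference from cc was 2.57 ± 0.27 (adjusted p = 0.00062), and the transgenic and Col-0 ranges overlapped. How reads were divided between this TE and RPP7, which share bases, is not known, and its part in the call was not tested.

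ELIP2 (AT4G14690) was among the protein-coding genes other than CMT2 that rose in both lines. It encodes an early light-induced protein of the thylakoid that protects against excess light. It was at 233 and 229 TPM in line 19 and 213 and 193 TPM in line 1, against 79.9 and 48.7 TPM in cc, with 42.7 and 41.9 TPM in Col-0 (log2 difference from cc 1.79 ± 0.16, adjusted p = 0.00016). Here the transgenic libraries were above both cc and Col-0. RLP19 (AT2G15080), a receptor-like protein gene, was at 15 and 17.1 TPM in line 19 and 15.3 and 14.8 TPM in line 1, against 4.97 and 4.15 TPM in cc, with 17.7 and 10.9 TPM in Col-0 (1.67 ± 0.17, adjusted p = 0.00044).

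EDF3 (AT3G25730), which encodes an ethylene response DNA binding factor, was at 5.60 and 6.43 TPM in line 19 and 4.85 and 4.89 TPM in line 1, against 1.08 and 1.8 TPM in cc, with 6.12 and 5.95 TPM in Col-0 (1.63 ± 0.14, adjusted p = 0.00016). RLP19 and EDF3 were thus near wild type in both lines. The noncoding gene AT4G06115 was at 9.54 and 9.90 TPM in line 19 and 11.9 and 11.1 TPM in line 1, against 2.89 and 2.43 TPM in cc, with 8.08 and 9.96 TPM in Col-0 (1.81 ± 0.22, adjusted p = 0.0013). The TE gene AT4G08115 was at 2.73 and 3.37 TPM in line 19 and 3.01 and 3.78 TPM in line 1, against 0.0737 and 0.0321 TPM in cc (2.75 ± 0.17, adjusted p = 1.6e-05).

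Many rises lost their call when a cc library was left out, as the counts in the closing section show. Those named here kept their direction. AT5G67488, a noncoding gene, was at 38.3 and 20.6 TPM in line 19 and 16.2 and 41.2 TPM in line 1 and was listed at 0 in both cc libraries, with 27.5 and 43.8 TPM in Col-0 (adjusted p = 0.02). All 4 transgenic values were thus far above cc, while its adjusted p was 0.11 without cc replicate 1, 0.16 without cc replicate 2, 0.061 without line 1 replicate 2 and 0.056 without line 19 replicate 1. AT2G30766, an uncharacterized gene, was at 11.9 and 9.84 TPM in line 19 and 6.57 and 9.64 TPM in line 1, against 3.69 and 3.02 TPM in cc (1.35 ± 0.20, adjusted p = 0.0052). Without cc replicate 2 its difference was 1.22 and its adjusted p was 0.091.

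No listed gene of the silencing machinery, other than CMT2 and CMT3, was called in CMT2/cc as a whole. ROS1 (AT2G36490), a glycosylase that removes methylated cytosine and whose transcript is known to follow the methylation of its own promoter, was at 14.2 and 14.5 TPM in line 19 and 9.78 and 12.5 TPM in line 1, against 21.4 and 25.7 TPM in cc, with 16.5 and 15.3 TPM in Col-0. All 4 transgenic values were below all cc and Col-0 values. The difference from cc was -0.87 ± 0.12 (adjusted p = 0.0026), under the fold threshold for CMT2/cc as a whole but called in line 1 alone (-1.05 ± 0.13, adjusted p = 0.0024). Without cc replicate 1 the value was -1.0 and was called. The other 3 demethylase genes were not called.

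None of the 18 tested genes of RNA-directed DNA methylation was called, and none of the 10 for methylation of histone H3 lysine 9, the 8 for post-transcriptional silencing or the 8 for heterochromatin proteins. Their medians lay between -0.13 and 0.00, beside -0.03 over all features. Of all tested genes 1.22% were called lower and 0.203% higher, so lists this short can give no call at that share. Differences below 0 were found in 15 of 18, 5 of 10, 4 of 8 and 5 of 8 genes, in the order given, and in 57.5% of all features. The lowest adjusted p in the first of these lists was that of MORC6 (AT1G19100), with 6.11 and 6.50 TPM in line 19 and 6.09 and 6.17 TPM in line 1, against 8.34 and 8.44 TPM in cc (-0.40 ± 0.09, adjusted p = 0.033). IBM1 (AT3G07610), a demethylase for histone H3 lysine 9, was chosen after its values were seen. It was at 6.27 and 6.31 TPM in line 19 and 6.49 and 7.25 TPM in line 1, against 6.50 and 5.78 TPM in cc, while Col-0 was at 10.1 and 10.8 TPM. Its level in CMT2/cc was not detectably different from that in cc (0.09 ± 0.10, adjusted p = 0.69), and both were below Col-0, where the difference of cc was -0.72 (adjusted p = 0.006).

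Genes whose expression is known to vary with DNA methylation gave mixed values. QQS (AT3G30720), an orphan gene of starch metabolism, was at 25.1 and 29.1 TPM in line 19 and 19.3 and 27.5 TPM in line 1, against 38.9 and 38.0 TPM in cc. Both Col-0 libraries had it at 0. The difference of -0.61 ± 0.14 (adjusted p = 0.037) was under the fold threshold. MRU1 (AT5G35490), which overlaps a TE, was at 8.13 TPM and 0 in line 19 and 4.19 and 3.83 TPM in line 1, against 50.5 and 51.6 TPM in cc, with 14.4 and 10.6 TPM in Col-0. It was called lower (-4.08 ± 0.84, adjusted p = 0.025), but its adjusted p was 0.12 without cc replicate 1, 0.20 without cc replicate 2, 0.056 without line 1 replicate 1 and 0.067 without line 1 replicate 2. MRD1 (AT1G53480) was at 33.2 TPM and 0 in line 19 and 34 and 26.8 TPM in line 1, against 24.0 and 20.1 TPM in cc, and was not called.

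Lists for stress and tissue type were examined as well. Of 31 rapid stress response genes, 1 was called higher and 0 lower, where 0.203% and 1.22% of all tested genes were called. Of the 31, 29 had a difference below 0, as had 57.5% of all features. Their median log2 difference was -0.38 beside -0.03 over all features. At the adjusted p alone 5 of the 31 were lower, as were 756 of all 23575 features. In line 19 alone 1 of the 31 was called lower, ERF105 (AT5G51190), at -1.63 on the log2 scale (adjusted p = 0.043). Their summed level was 437 to 599 TPM in CMT2/cc, against 733 to 736 TPM in cc. The gene called was JAZ7 (AT2G34600), a repressor of jasmonate signalling, with 1.79 and 4.35 TPM in line 19 and 3.52 and 4.51 TPM in line 1, against 1.11 and 1.16 TPM in cc (1.25 ± 0.28, adjusted p = 0.039). Its call was lost without cc replicate 1 (adjusted p = 0.17), cc replicate 2 (0.24), line 1 replicate 1 (0.063), line 1 replicate 2 (0.11) or line 19 replicate 2 (log2 difference 0.98).

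Of the 13 salicylic acid defence genes, 14 hypoxia genes, 10 heat shock genes, 14 circadian clock genes and 5 cell division genes tested, 0 were called in either direction by limma in CMT2/cc as a whole. At the adjusted p alone, 1 heat shock gene, HSFA7A, and 1 cell division gene, AT5G06150, were lower. In line 19 alone 1 salicylic acid gene was called lower, FMO1 (AT1G19250), at -1.44 on the log2 scale (adjusted p = 0.028). Cell division genes had a median of -0.36, with -0.14 in line 19 and -0.51 in line 1. In line 1, 3 of the 5 were lower at the adjusted p alone, as were 643 of all 23575 features. None of the 5 was called between the lines. PR1 (AT2G14610), the salicylic acid marker, differed more between replicates than between groups, at 1.35 and 30.9 TPM in line 19 and 36.7 and 11.3 TPM in line 1, against 61.2 and 17.0 TPM in cc.

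Markers of other organs were summed as well, and their part in the results was not tested. The summed leaf markers were between 73917 and 79573 TPM in CMT2/cc, against 79205 and 79812 TPM in cc, with 0 of 10 called. Summed root markers were between 69.4 and 83.4 TPM, against 73.4 and 79.4 TPM, with 0 of 8 called. Over all tested genes the shares called were 1.22% lower and 0.203% higher. Flower markers summed to between 2.82 and 4.26 TPM, against 3.95 and 5.73 TPM, and 2 of the 6 were at 0 in all 6 libraries. Seed markers summed to 6.30 and 1.29 TPM in line 19 and 0.560 and 0.755 TPM in line 1, against 0.913 and 1.38 TPM in cc, and 2 of the 14 were at 0 in all 6 libraries. Fewer cells of a type and less RNA per cell cannot be told apart in such bulk samples.

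The 2 lines differed from each other at few features, in some nearly on or off and in others by degree. A direct test of line 19 against line 1, which uses no cc library, called 16 features lower and 25 higher in line 19, or 0.0679% and 0.106% of those tested. The 41 features lie in 30 neighbourhoods when gaps of up to 5000 bases are bridged, and 30 of them have at least 90% of their windows unique. Of the genes lower than cc in line 1 only, 67 in number, 10 were called between the lines, and of the 23 TEs, 8. Of the 45 genes and 11 TEs lower in line 19 only, 6 and 2 were called between the lines. For the rest a difference between the lines was not shown.

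One kind of difference was a TE or gene that stayed as high as in cc in line 19 and was off in line 1. AT3TE45390, on chromosome 3 from 10922914 to 10923082, was at 87.1 and 72.8 TPM in line 19 and listed at 0 in both libraries of line 1, with 96.6 and 83.9 TPM in cc and 0.808 and 0.269 TPM in Col-0 (adjusted p between the lines 3.2e-05). It overlaps no other feature and all its windows are unique. It is printed because it gave the widest difference between the lines, TAIR10 minus strand, with CAA and CTA on this strand in capitals.
AT3TE45390: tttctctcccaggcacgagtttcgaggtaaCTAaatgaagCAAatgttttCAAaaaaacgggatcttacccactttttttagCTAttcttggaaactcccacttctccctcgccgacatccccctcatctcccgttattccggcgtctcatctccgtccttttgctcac
The longer TE next to it, AT3TE45385, was at 23.6 and 25.4 TPM in line 19 and 0.0406 and 0.0847 TPM in line 1, with 29.7 and 28.3 TPM in cc (log2 difference between the lines 5.48 ± 0.17, adjusted p = 8e-07). The TE gene that overlaps that element, AT3G28915, was at 19.6 and 17.64 TPM in line 19 and listed at 0 in line 1, with 12.6 and 19.6 TPM in cc.

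The same held elsewhere on chromosome 3. AT3TE40420 was at 13.8 and 10.9 TPM in line 19 and 0.176 and 0.127 TPM in line 1, with 14.5 and 14 TPM in cc (4.30 ± 0.26, adjusted p = 6.6e-05). AT3TE92810, AT3TE92795 and AT3TE92800 form a further group within 1 kilobase. AT3TE92795 was at 5.57 and 4.98 TPM in line 19 and 0.389 and 0.359 TPM in line 1, with 4.42 and 4.63 TPM in cc (2.72 ± 0.18, adjusted p = 0.00015). On chromosome 2, AT2G02103, annotated as a Ta11-like non-LTR retrotransposon, was at 2.64 and 3.20 TPM in line 19 and 0.0660 TPM and 0 in line 1, with 3.56 and 4.77 TPM in cc.

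OFP9 (AT4G04030), an ovate family transcription repressor, and its near-copies AT3G54730 and AT2G19850 differed in the same way. OFP9 was at 25.7 and 27.7 TPM in line 19 and 0.0799 and 0.169 TPM in line 1, with 32.7 and 33.4 TPM in cc and 0.0293 TPM and 0 in Col-0 (5.45 ± 0.25, adjusted p = 9.8e-06). AT3G54730 was at 31.6 and 34 TPM in line 19 and 0.0499 and 0.163 TPM in line 1, and AT2G19850 was at 13.3 and 15.8 TPM in line 19 and 0.0549 and 0.130 TPM in line 1. These 3 values are not independent, because the coding sequences begin with the same 150 bases, shown here from OFP9 (chromosome 4, 1937694 to 1937843, minus strand), with no base that differs in either copy and so no capitals.
AT4G04030: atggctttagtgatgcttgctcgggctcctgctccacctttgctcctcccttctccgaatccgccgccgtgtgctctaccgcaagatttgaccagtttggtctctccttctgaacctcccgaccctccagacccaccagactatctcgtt
The longest run that all 3 share is 184 bases, and 77.3%, 68.9% and 49.8% of the 50-base windows of OFP9, AT3G54730 and AT2G19850 recur in the other copies. Which of the 3 genes was transcribed is therefore uncertain.

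The opposite kind was on in line 1 and nearly off in line 19. AT5TE36230, on chromosome 5 from 9949205 to 9954436, was at 0.955 and 0.822 TPM in line 19 and 31.0 and 22.7 TPM in line 1, with 54.7 and 55.7 TPM in cc (-4.29 ± 0.13, adjusted p = 7.2e-07). A stretch of chromosome 1 holds 4 entries of this kind. AT1G45030 was at 0.0120 TPM and 0 in line 19 and 17.1 and 20.9 TPM in line 1, with 30.9 and 52.0 TPM in cc (-5.26 ± 0.23, adjusted p = 9.8e-06), and AT1G45020, AT1G45035 and AT1TE56390 beside it were called in the same direction. The noncoding gene AT2G15555 was at 0.0633 and 0.239 TPM in line 19 and 4.88 and 7.65 TPM in line 1, with 60.2 and 58.7 TPM in cc (-3.36 ± 0.20, adjusted p = 6e-05). These loci were listed at or near 0 in Col-0, so line 19 was close to wild type there and line 1 lay between.

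Smaller groups on chromosome 2 went the same way. AT2G13450, another Ta11-like gene, was at 0.135 and 0.0213 TPM in line 19 and 3.08 and 3.93 TPM in line 1, with 2.87 and 3.0 TPM in cc (-2.79 ± 0.22, adjusted p = 0.00047). AT2G16676, also Ta11-like, was at 0.0723 and 0.0471 TPM in line 19 and 2.82 and 1.90 TPM in line 1, with 2.03 and 2.36 TPM in cc (-2.34 ± 0.23, adjusted p = 0.0026). In both, line 1 was at the level of cc.

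In a few features at least one of the lines lay outside the range of cc and Col-0. AT2G01422, a noncoding gene, was at 41.8 and 45.7 TPM in line 19 and 3.91 and 4.31 TPM in line 1, with 3.94 and 3.66 TPM in cc and 0.159 and 0.0794 TPM in Col-0 (3.26 ± 0.41, adjusted p = 0.015). AT2G06950, a TE gene, was at 20.8 and 20.1 TPM in line 19 and 9.28 and 9.5 TPM in line 1, with 22.9 and 22.8 TPM in cc and 18.5 and 18.1 TPM in Col-0 (1.08 ± 0.07, adjusted p = 6.6e-05). AT5G24940, a protein phosphatase 2C family gene, was listed at 0 in line 19, cc and Col-0 and was at 0.915 and 1.01 TPM in line 1.

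**Figure D5:**
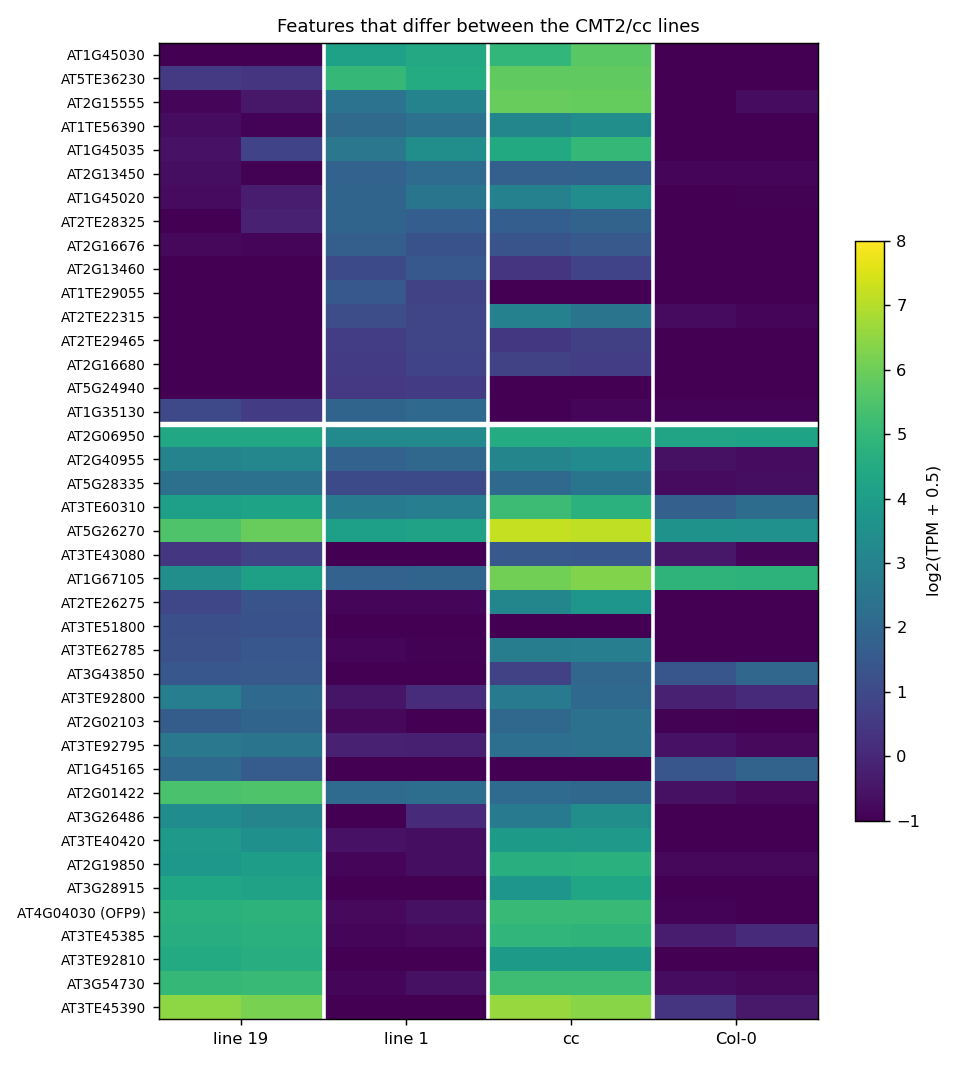
Level as log2(TPM + 0.5) of the 41 features called between line 19 and line 1, one cell per library, with line 19 and line 1 left of cc and Col-0. The 16 features above the white line are lower in line 19 and the 25 below it are higher in line 19, and most of either kind are on in cc and off in Col-0.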

How the data were processed

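Seedling RNA libraries (TruSeq) were trimmed, aligned to TAIR10 with HISAT2 2.0.0 and quantified with StringTie, per the submitters' notes. The authors deposited 1 table a library with TPM, FPKM and coverage, which is a per-base signal. TPM was the main unit, the deposited FPKM an alternative, and the deposited coverage served only to estimate aligned sequence. Read counts were not among the columns, so no count test was run. Organelle features were left out. Level was log2(TPM + 0.5), and all 12 libraries entered one limma 3.58.1 model with 6 groups (R 4.3.3, tested on simulated data). CMT2/cc is the mean of both lines. The remaining excess over Col-0 was taken over features called higher in cc relative to Col-0, since choosing by the fall would fix it. This choice still takes features high in cc, which favours a small remaining part. Uniqueness is the percent of 50-base windows found once in the genome. The 116 named features were the construct genes, the furthest calls in each class, the furthest differences between the lines, the 3 furthest members of each of 19 lists and the study's PCR loci, and any other is named as an example. Members and lists were chosen with earlier results of these data known. Alternatives were other pseudocounts, filters, units, scalings, sample sets and single libraries left out. Replicate numbers did not pair the samples. Precision is limited by 2 libraries a group, and 3 reads equal 0.184 to 0.211 TPM in a feature of 1 kilobase in the 6 libraries.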

Additional observations from a re-analysis of the deposited data

Results flagged for a closer look

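In 11 features the effect of the transgene, as difference from the libraries labelled cc on the log2(TPM + 0.5) scale, differed between the lines by the direct test of line 19 against line 1. Effects were smaller in line 19 (difference above 0) for AT3TE45390 (7.32), AT3G54730 (5.78), AT3TE92810 (5.56), AT3TE45385 (5.48) and AT4G04030 (5.45). They were stronger in line 19, with falls reaching further, for AT1G45030 (-5.26), AT5TE36230 (-4.29), AT2G15555 (-3.36), AT1TE56390 (-3.06) and AT1G45035 (-2.90). The rise of AT1G35130 was smaller in line 19 (-1.19). The values of AT3TE45390 and AT3TE92810 depend on the pseudocount, since both libraries of line 1 were listed at 0. AT3TE92810 is 38 bases long, so that 3 reads there are worth at least 4.85 TPM. Treating the 4 CMT2/cc libraries as 1 group ended the call against cc for 9 of the 11, all but AT2G15555 and AT1G35130.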

How the results depend on the processing

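Counts of features lower and higher in CMT2/cc than in cc were 413 and 62. With the 4 CMT2/cc libraries as 1 group, where the spread between the lines enters, they were 382 and 60. With a mean of at least 1 TPM required, 173 were lower in CMT2/cc, 163 in line 1 and 139 in line 19 than in cc, 27 were higher in line 19 than in cc, and 8 were lower in line 19 than in line 1, because fewer features were tested. With features that overlap no other, counts of lower and higher were 143 and 31 in CMT2/cc, 125 and 32 in line 1, 114 and 23 in line 19, and 3 and 11 for line 19 against line 1, again with fewer tested. With only the 6 libraries in the fit, line 1 had 248 lower and 41 higher and line 19 had 225 lower. The cause of this was not tested. At the adjusted p alone there were 756 lower and 376 higher in CMT2/cc, 643 and 307 in line 1, and 181 higher in line 19. With at least 90% of windows unique, chosen after seeing the data like the fixed test set below, 255 were lower in line 1, 233 in line 19, and 16 were higher in line 19 than in line 1. Leaving out 1 library in turn gave 98 to 418 lower and 44 to 68 higher in CMT2/cc, 94 to 391 and 28 to 83 in line 1, 80 to 339 and 26 to 48 in line 19, and 10 to 18 lower and 17 to 28 higher for line 19 against line 1. The low ends for the falls against cc came from leaving out cc replicate 2. With the same features tested, 391 (349 of the same) and 321 (308 of the same) were lower without cc replicate 1 and cc replicate 2, and 60 (32 of the same) and 50 (27 of the same) were higher.

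A replicate block gave 409 lower and 63 higher, of which 405 and 58 were the same. It ended the call of JAZ7 (adjusted p = 0.056) and of no other named feature. Deviations of same-numbered libraries correlated at -0.07 to 0.11, so the numbers were not taken as pairs. Quantile normalization gave 376 lower and 89 higher. Summing TEs with their TE genes reversed AT4TE50435, from 3.23 to -0.27. No alternative moved the median of all features by over 0.1. DESeq2 was not run, for want of counts.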
